A study of Phaseolus vulgaris with 12 samples.

Results

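The response of common bean (Phaseolus vulgaris) variety 093 to cold was measured by RNA sequencing of true leaves, in 3 libraries of plants kept at 4 °C for 3 days and 3 libraries of control plants kept without cold, out of 12 libraries in the series. The design text calls 093 cold-sensitive. The cold plants were moved to an incubator while the control plants stayed on a culture rack, both with 12 h of light and 12 h of darkness per day, so that cold and place cannot be told apart. The other 6 libraries are of variety 120, called cold-tolerant, under the same treatments, and are used below only to test where the response of 093 differed. Beyond being common bean of variety 093, no genotype, transgene or further agent is given for the plants. Each treatment of a variety had 3 pots sown with 4 seeds, but how the 3 libraries of a group relate to pots or plants is not stated. The p-values therefore describe library-to-library spread, which could be technical alone. The age of the plants and the time of day of sampling are not given in the sources used here.

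Values are FPKM, fragment counts scaled by transcript length and by library total, as the authors deposited them. The comparison kept loci that reached 1 FPKM in 3 or more of the 6 libraries of 093, which were 13810 of the 22542 loci in the table. Of these, 11166 had a description, 6756 a KEGG pathway and 12006 a GO term. A locus was called, and is said to have risen or fallen, at an adjusted p under 0.05 (limma on log2(FPKM + 1), Benjamini-Hochberg over all loci tested) together with a log2 change, cold minus control, of 1 or more in size. Levels are FPKM, changes are on the log2(FPKM + 1) scale, which understates the change of low loci, and values with ± are means with SD over the 3 libraries of a group. Every locus described below with its own values was called and had cold libraries that did not overlap the control libraries. Both were conditions for describing a locus, so that statements of no overlap at such loci only restate the condition. The largest adjusted p among the loci described was 0.0029 (limma).

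Common bean is a warm-season legume, and chilling slows its enzymes and membranes while light capture goes on. As background, leaves of many plants respond to chilling by cutting the transcripts of light capture and carbon fixation, by remaking ribosomes and protein quality control, and by changing sugar, lipid and hormone metabolism. Respiration in plant mitochondria can run through the cytochrome pathway or through alternative enzymes that bypass its proton-pumping steps.

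The cold libraries were alike, and 1 control library stood somewhat apart. On log2(FPKM + 1), Pearson correlations within the group ran from 0.977 to 0.978 among cold libraries and from 0.948 to 0.966 among control libraries, and control library 3 had the lowest. It also lay nearest to the cold libraries, with a mean correlation of 0.587 with them, against 0.556 for control library 1 and 0.547 for control library 2. In 64.5% of the loci that rose, control library 3 was the highest control. The median SD over loci was 0.096 in the cold group and 0.22 in the control group. Without fragment totals in the table, counting error cannot be given. Judged by their smallest nonzero values, the 6 libraries differed in depth by up to 1.39 times. Between 13317 and 13357 loci reached 1 FPKM in the cold libraries, and between 12091 and 12552 in the control libraries. Mesophyll markers, transcripts of green tissue, made up, of summed FPKM, 2.78, 2.57 and 2.69% in the cold libraries, against 10.2, 7.33 and 9.14% in the control libraries. Transcripts of green tissue were thus present in both groups. The list includes loci described below as falling, such as rubisco activase, and cannot set leaf apart from other green tissue.

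Of the loci tested, 50.8% were called different between the cold and the control libraries. In 093, 4802 of 13810 loci rose (34.8%) and 2214 fell (16.0%). Without control library 3 the counts were 5133 and 2128. At 80.5% of loci, cold and control libraries had no overlap. The rises included 257 loci of at least 16-fold and 30 of at least 64-fold on FPKM + 1, and the falls 56 and 3. A group of 1245 loci reached 1 FPKM in all cold and no control libraries, and 504 in all control and no cold libraries, so that they passed the filter only through the group where they were high. Both kinds are called one-sided below, and some of the loci described by name are one-sided, as their levels show. Without one-sided loci, 3756 of 12061 rose (31.1%) and 1813 fell (15.03%).

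The excess of rises rested on the scaling of the deposited values. The median log2 change of all loci tested was 0.47. With median-ratio scaling the median shifted by -0.44, and 3351 loci rose and 3297 fell. With quantile normalization it shifted by -0.45, and 3220 loci rose and 3363 fell. The 20 most abundant loci of each library held 8.95, 8.95 and 8.54% of its summed FPKM in the cold libraries, against 24.3, 26.9 and 20.7% in the control libraries, and their part in the shift of the median was not tested. Under all 3 scalings, 3182 loci rose and 2202 fell. Medians of gene groups are therefore given below relative to the median of all loci. Percents beside a group's counts are of its tested members and are to be read against the 34.8% of all loci that rose and the 16.0% that fell. These percents hold for the deposited scaling. Counts of a group under another scaling are to be read against the counts of all 13810 loci under it. Those are 3351 and 3297 for median-ratio scaling and 3220 and 3363 for quantile normalization. Where neither alternative scaling is mentioned beside a group's counts, the larger count stayed on the same side under both, and the share of rises among the calls moved by no more than 10 percentage points. Counts without one-sided loci follow where these made up 15% or more of the tested members, to be read against 31.1% and 15.03% of all other loci. Groups come from the table's KEGG, GO and description columns, and a median of 70.2% of their listed loci passed the filter on low values, at the lowest 20%. Some KEGG labels sit on loci whose descriptions name something else. Examples are a ribonuclease in ubiquitin-mediated proteolysis, a sulfite exporter family protein in the spliceosome and an enhancer of rudimentary protein in cutin, suberin and wax. Such loci were kept, so counts and shares are of loci that carry a label.

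**Figure D1:**
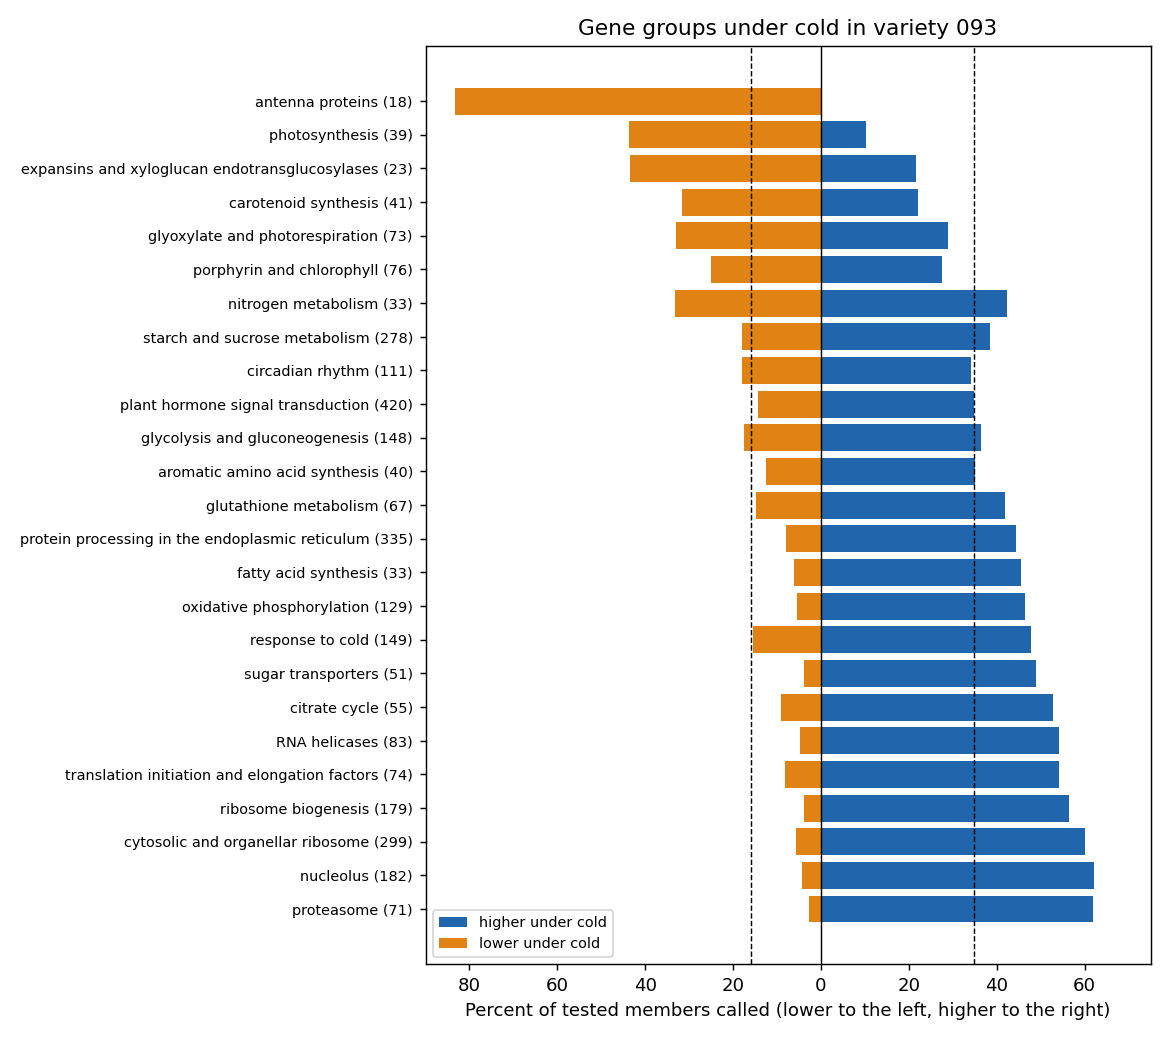
Percent of tested members that rose (right) and fell (left) under cold in 093, for gene groups taken from the table's KEGG, GO and description columns, with the number of tested members in brackets. Dashed lines mark the percent over all 13810 loci tested, 34.8% higher and 16.0% lower, and among the groups drawn, which were chosen with their values known, the antenna and photosynthesis groups reach farthest to the left and the nucleolus, proteasome and ribosome groups farthest to the right.

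Thylakoid loci held a smaller share, and ribosome and proteasome loci a larger share, of the leaf transcripts under cold. Loci annotated to the chloroplast thylakoid membrane held, of summed FPKM, 6.26, 5.78 and 6.18% in the cold libraries, against 18.5, 13.95 and 16.5% in the control libraries. This share does not depend on scaling between libraries. By number, 35 of 223 tested members rose (15.7%) and 88 fell (39.5%), with 16 and 123 under median-ratio scaling and 17 and 114 under quantile normalization. The antenna proteins, which capture light for both photosystems, held 0.474, 0.388 and 0.417% in the cold libraries, against 3.45, 2.46 and 3.23% in the control libraries. Ribosome loci moved the other way and held 5.53, 5.63 and 5.46% in the cold libraries, against 2.13, 2.15 and 2.29% in the control libraries. Proteasome loci held 1.53, 1.57 and 1.58% in the cold libraries, against 0.634, 0.585 and 0.682% in the control libraries, and in all 4 groups no cold library overlapped a control library. For each of these shares the exact two-sided permutation p was 0.1, the smallest that 3 libraries against 3 can give.

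A single transcript carried a large part of some shares. Rubisco activase (Phvul.001G234300), a chaperone that frees Rubisco of bound inhibitors, stood at 2778, 2681 and 2841 FPKM in cold libraries, against 17655, 11877 and 15670.5 FPKM in control libraries. Its log2 change of -2.43 was -0.70 under quantile normalization and was then not called, and without a filter on low values its adjusted p was 0.32 (limma). Without it, the thylakoid share was 5.26 ± 0.243% under cold and 11.7 ± 1.52% in controls. Loci annotated as responding to cold held 3.83 ± 0.189% under cold and 7.58 ± 0.984% in controls, but 3.02 ± 0.1702% and 2.98 ± 0.231% without rubisco activase, which carries that annotation. The exact two-sided permutation p of that share was 0.6 without rubisco activase, and the groups overlapped. By number, 71 of 149 tested members rose (47.7%) and 23 fell (15.4%), beside 34.8% and 16.0% of all loci.

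**Figure D2:**
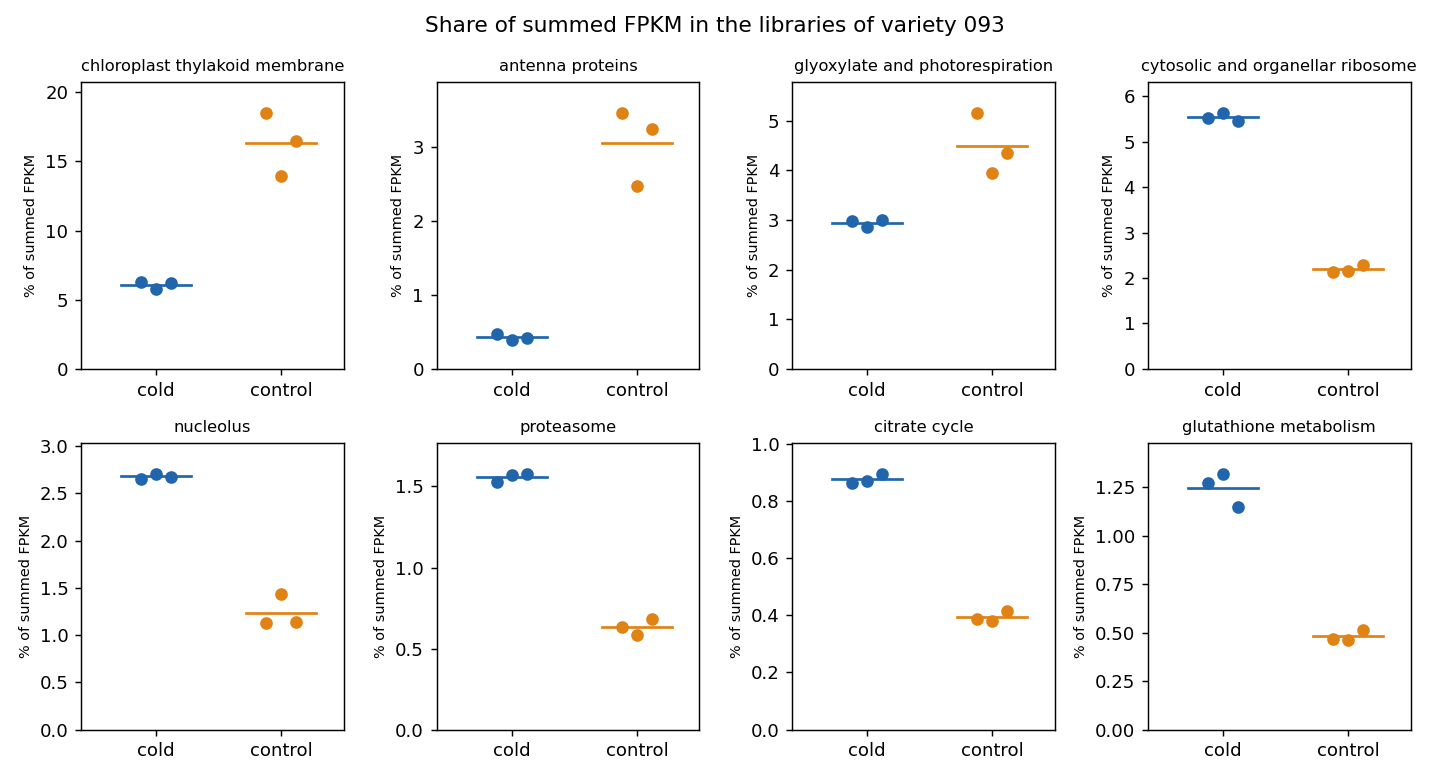
Percent of summed FPKM held by 8 gene groups in each of the 6 libraries of 093 (points; horizontal bars are group means), cold left of control in each panel, with separate vertical axes that start at 0. The thylakoid, antenna and photorespiration groups are lower in every cold library, and the ribosome, proteasome, nucleolus, citrate cycle and glutathione groups are higher.

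Among the photosynthetic electron carriers, ferredoxin-NADP(+)-oxidoreductase 2 (Phvul.002G108000), which reduces NADP at the end of the chain, stood at 50.3, 52.9 and 52.3 FPKM in cold libraries, against 371, 322 and 360.4 FPKM in control libraries. Photosystem II subunit R (Phvul.005G055200) stood at 1247, 1084 and 1219 FPKM in cold libraries, against 6036, 3643 and 3969 FPKM in control libraries. The Rieske protein of the cytochrome b6f complex (photosynthetic electron transfer C, Phvul.005G109400) stood at 1048, 1035 and 1113 FPKM in cold libraries, against 2593, 1779 and 2105 FPKM in control libraries. All 3 were lower in every cold library than in any control library, with log2 changes of -2.73, -1.91 and -1.001. The fall of photosystem II subunit R was -0.81 under quantile normalization and was then not called. The change of the Rieske protein was 0.029 under quantile normalization, so that its direction turned. Its call was also lost without cold library 1 (-0.990), without cold library 2 (-0.981) and without control library 1 (-0.861), and without a filter on low values (adjusted p = 0.078, limma). Of the photosynthesis pathway, 4 of 39 tested members rose (10.3%) and 17 fell (43.6%), with 2 and 22 under median-ratio scaling and 2 and 17 under quantile normalization. The median was 1.45 below that of all loci.

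A different electron carrier went up. Ferredoxin 3 (Phvul.007G022500), whose Arabidopsis namesake is the form of roots and other non-green tissue, stood at 146, 155 and 144 FPKM in cold libraries, against 32.7, 18.5 and 20.8 FPKM in control libraries, a log2 change of 2.62 (SE 0.20, adjusted p = 2.3e-05 by limma). In the antenna group, 0 of 18 tested members rose (0%) and 15 fell (83.3%), with a median log2 change of -2.56. The minor antenna protein of photosystem II LHCB5 (Phvul.004G128200) had 182 ± 20.1 FPKM under cold and 1781 ± 387 FPKM in controls. The photosystem I antenna protein LHCA1 (Phvul.004G071500) had 202 ± 7.64 FPKM under cold and 1169 ± 347 FPKM in controls. Both were lower in each cold library than in each control library.

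Chlorophyll synthesis and breakdown moved in opposite directions at the 3 loci described here. The diiron protein Crd1 (Phvul.001G108700), a subunit of the cyclase that closes the fifth ring of chlorophyll, stood at 91.2, 89.7 and 97.6 FPKM in cold libraries, against 692, 538 and 814 FPKM in control libraries. The H subunit of magnesium chelatase (Phvul.001G132200), which commits porphyrin to chlorophyll, stood at 85.4, 78.1 and 87.2 FPKM in cold libraries, against 243, 172 and 269 FPKM in control libraries. Pheophorbide a oxygenase (Phvul.011G086700), which opens the chlorophyll ring during breakdown, stood at 159, 158 and 151 FPKM in cold libraries, against 81.2, 45.1 and 58.4 FPKM in control libraries. The synthesis loci were lower and the breakdown locus higher in every cold library, although the rise of pheophorbide a oxygenase, 1.37 on log2, was 0.85 under median-ratio scaling and 0.89 under quantile normalization and was then not called. In the porphyrin and chlorophyll pathway as a whole, 21 of 76 tested members rose (27.6%) and 19 fell (25.0%), with 15 and 30 under median-ratio scaling, 14 and 30 under quantile normalization and 13 and 16 of 63 without one-sided loci. In carotenoid synthesis, 9 of 41 tested members rose (22.0%) and 13 fell (31.7%), with 8 and 17 under median-ratio scaling, 7 and 19 under quantile normalization and 3 and 11 of 32 without one-sided loci. A lycopene cyclase (Phvul.009G230300), which forms the ring ends of carotenoids, had 1.98 ± 0.0458 FPKM under cold and 39.3 ± 1.595 FPKM in controls. DXR (1-deoxy-D-xylulose 5-phosphate reductoisomerase, Phvul.010G023000), an early enzyme of the plastid isoprenoid pathway that feeds both pigments, had 144 ± 4.97 FPKM under cold and 939.9 ± 427 FPKM in controls, and all 3 control libraries lay above all 3 cold libraries.

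Photorespiration salvages the product that Rubisco makes with oxygen, and 2 abundant loci of it fell while its pathway as a whole was divided. Alanine:glyoxylate aminotransferase (Phvul.006G029100), which turns glyoxylate into glycine in peroxisomes, stood at 428, 417 and 429 FPKM in cold libraries, against 2503, 1591 and 1921 FPKM in control libraries. A locus annotated with glycolate oxidase activity and described as an aldolase-type TIM barrel protein (Phvul.005G051800) stood at 817, 794 and 859 FPKM in cold libraries, against 1964, 1397 and 1643 FPKM in control libraries. The groups did not overlap at either locus, and the second, at -1.004 on log2, was -0.17 under quantile normalization and was then not called. Its call was also lost without cold library 1 (-0.999), cold library 2 (-0.978) or control library 1 (-0.879). Of glyoxylate and dicarboxylate metabolism, 21 of 73 tested members rose (28.8%) and 24 fell (32.9%), with 14 and 27 under median-ratio scaling and 14 and 26 under quantile normalization, and the share of summed FPKM was 2.95 ± 0.0705% under cold and 4.48 ± 0.616% in controls.

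In central carbon metabolism, 3 loci of glycolysis and fermentation rose by a large factor and 2 abundant loci of the same pathway fell, while the pathway as a whole lay near all loci. Enolase (Phvul.001G186100), a late step of glycolysis, was among the 5 most abundant loci that rose and could be named, and its level was 1023, 1020.1 and 1096 FPKM in cold libraries, against 26.3, 18.7 and 24.1 FPKM in control libraries. The cytosolic glyceraldehyde-3-phosphate dehydrogenase GAPC1 (Phvul.001G259000) stood at 759.6, 758 and 797 FPKM in cold libraries, against 4.91, 4.47 and 11.1 FPKM in control libraries. A pyruvate decarboxylase (Phvul.008G095400), which opens the way to ethanol fermentation, stood at 184, 179 and 187 FPKM in cold libraries, against 2.401, 1.35 and 0.549 FPKM in control libraries. Every cold library lay above every control library at these loci, with log2 changes of 5.46, 6.72 and 6.32 (SE 0.14, 0.29 and 0.26). High cyclic electron flow 1 (Phvul.008G112000), in Arabidopsis the plastid fructose-1,6-bisphosphatase of the Calvin cycle, had 70.3 ± 2.67 FPKM under cold and 376 ± 82.7 FPKM in controls. The NADP-dependent aldehyde dehydrogenase 11A3 (Phvul.003G157200), which oxidises glyceraldehyde-3-phosphate without making ATP, had 56.3 ± 0.596 FPKM under cold and 298 ± 52.6 FPKM in controls. Both fell. In the whole pathway of glycolysis and gluconeogenesis, 54 of 148 tested members rose (36.5%) and 26 fell (17.6%), with 44 and 41 under median-ratio scaling and 43 and 39 under quantile normalization. With the deposited scaling these shares were close to the 34.8% and 16.0% of all loci. Its share of summed FPKM overlapped between the groups (exact two-sided permutation p = 0.4). Without its most abundant locus, that share was 1.84 ± 0.0132% under cold and 1.27 ± 0.137% in controls, without overlap (exact two-sided permutation p = 0.1).

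With the deposited scaling, the citrate cycle and oxidative phosphorylation each had a larger share of members called higher than the 34.8% of all loci. Of the citrate cycle, 29 of 55 tested members rose (52.7%) and 5 fell (9.09%). Its median lay 0.70 above that of all loci. Of oxidative phosphorylation, 60 of 129 tested members rose (46.5%) and 7 fell (5.43%), with 34 and 16 under median-ratio scaling and 33 and 16 under quantile normalization. Under the alternative scalings its share of rises was close to that of all loci. Its median log2 change under median-ratio scaling was 0.53, against 0.035 for all loci. Aconitase 3 (Phvul.005G115100), which converts citrate to isocitrate, stood at 240.1, 231 and 254 FPKM in cold libraries, against 20.7, 16.7 and 28.2 FPKM in control libraries. A subunit of ATP-citrate lyase (ACLA-1, Phvul.002G064600), which cuts citrate to give acetyl-CoA in the cytosol, stood at 330.0, 335 and 348 FPKM in cold libraries, against 12.01, 11.6 and 16.2 FPKM in control libraries. Both were higher in all cold libraries. Peroxisomal malate dehydrogenase 2 (Phvul.002G216800), placed in the same pathway by its KEGG label, fell and had 34.04 ± 0.791 FPKM under cold and 122 ± 12.96 FPKM in controls.

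Most tested loci of a small list drawn by words in the descriptions rose. The words were for alternative oxidases, alternative NADH dehydrogenases and uncoupling proteins, but the list did not hold the NDB2 loci given below. In it, 5 of 6 tested members rose (83.3%) and 0 fell (0%), with 4 and 0 of 5 without one-sided loci. Under each alternative scaling 4 rose and 0 fell. Alternative oxidase passes electrons straight to oxygen. Alternative oxidase 1A (Phvul.002G127100) stood at 27.4, 26.1 and 34.5 FPKM in cold libraries, against 2.18, 2.84 and 2.75 FPKM in control libraries. A locus of alternative oxidase 2 (Phvul.002G209200) stood at 33.8, 36.5 and 35.1 FPKM in cold libraries, against 1.85, 0.909 and 1.47 FPKM in control libraries. A second alternative oxidase 2 locus (Phvul.002G209100), outside the 105 loci counted below, had 44.2 ± 1.31 FPKM under cold and 21.2 ± 2.93 FPKM in controls. Its log2 change of 1.03 was 0.52 under both alternative scalings and was then not called. Another alternative oxidase (Phvul.006G144800) stood at 97.1, 104 and 107 FPKM in cold libraries, against 22.9, 21.3 and 34.7 FPKM in control libraries. At each alternative oxidase the lowest cold library was above the highest control library. The external NADH dehydrogenase NDB2, which feeds electrons to the chain without pumping, was represented by 2 loci. Phvul.002G221500 had 151 ± 9.07 FPKM under cold and 11.8 ± 4.998 FPKM in controls. Phvul.006G192400 had 44.8 ± 2.61 FPKM under cold and 0.0259 ± 0.0299 FPKM in controls. Both were chosen through the inner membrane annotation, where 20 of 39 tested members rose (51.3%) and 1 fell (2.56%), with 16 and 2 under median-ratio scaling and 16 and 3 under quantile normalization. Of the channels that import proteins, TOM20-3 (Phvul.004G072400) had 96.9 ± 1.59 FPKM under cold and 4.99 ± 2.33 FPKM in controls. TOM40 (Phvul.002G324200) had 67.04 ± 3.58 FPKM under cold and 15.7 ± 3.07 FPKM in controls, both higher in each cold library.

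**Figure D3:**
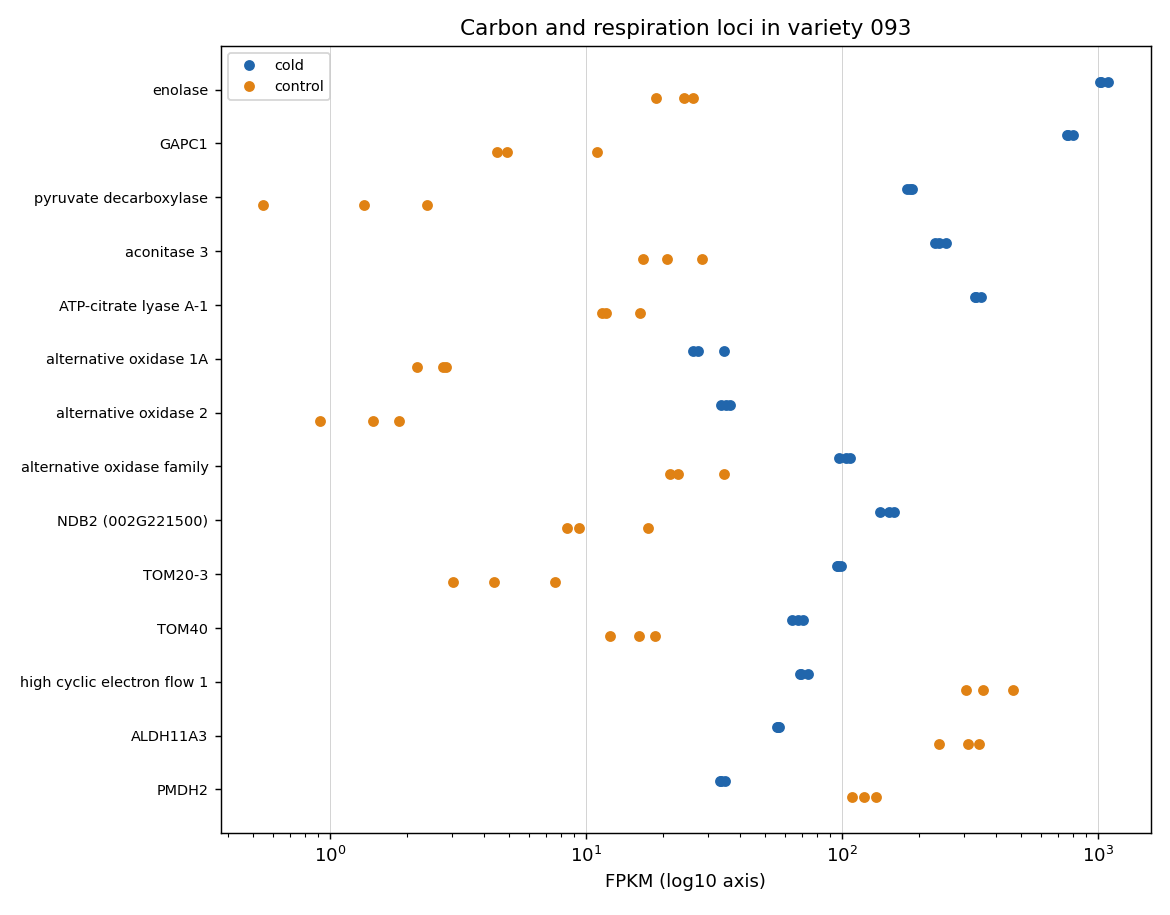
FPKM on a log10 axis in each library of 093 (points) for loci of glycolysis, fermentation, the citrate cycle and alternative respiration, chosen with their values known, with cold (blue) drawn above control (orange) at each locus. The groups do not overlap at any locus shown, and the 3 falling loci at the bottom, high cyclic electron flow 1, ALDH11A3 and PMDH2, have cold left of control.

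Groups of loci for making ribosomes had a larger share of members called higher than the 34.8% of all loci. Of ribosome biogenesis loci, 101 of 179 tested members rose (56.4%) and 7 fell (3.91%), with 74 and 17 under median-ratio scaling and 73 and 17 under quantile normalization. Of loci of the nucleolus, where ribosomes are assembled, 113 of 182 tested members rose (62.1%) and 8 fell (4.4%). The median of the nucleolus loci lay 1.06 above that of all loci. A pair of NOP56 loci, core proteins of the particles that methylate ribosomal RNA, rose together. Phvul.011G042200 stood at 163, 170.3 and 172 FPKM in cold libraries, against 4.14, 3.88 and 5.600 FPKM in control libraries. Phvul.003G209500 stood at 119.6, 122 and 127 FPKM in cold libraries, against 2.59, 2.92 and 3.12 FPKM in control libraries. A Brix domain protein for ribosomal RNA processing (Phvul.007G223300) stood at 158, 162 and 169.8 FPKM in cold libraries, against 2.21, 4.39 and 3.06 FPKM in control libraries. All cold libraries stood far above all control libraries at these 3 loci. Nucleolin like 2 (Phvul.011G030600), a nucleolar RNA-binding protein, had 295 ± 13.4 FPKM under cold and 12.7 ± 2.69 FPKM in controls. Initiation factor 6 (Phvul.004G133500), which matures the large subunit, had 444 ± 15.8 FPKM under cold and 94.02 ± 14.4 FPKM in controls.

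Of loci in the ribosome pathway, 180 of 299 tested members rose (60.2%) and 17 fell (5.69%). The median was 1.07 above that of all loci. Ribosomal protein SA B of the small subunit (Phvul.010G125100) stood at 303, 292 and 304 FPKM in cold libraries, against 59.9, 54.2 and 67.1 FPKM in control libraries. An L16p/L10e family protein (Phvul.006G080600) stood at 249, 249 and 266 FPKM in cold libraries, against 3.097, 1.904 and 3.66 FPKM in control libraries. Both were higher in every cold library. An L1p/L10e family protein (Phvul.011G011500) fell and had 101 ± 2.11 FPKM under cold and 467 ± 84.2 FPKM in controls. Ribosomal protein S1 (Phvul.003G118600), in plants a plastid protein, fell and had 70.3 ± 0.995 FPKM under cold and 191 ± 13.9 FPKM in controls. Of translation initiation and elongation factors, 40 of 74 tested members rose (54.1%) and 6 fell (8.11%), with 32 and 11 under median-ratio scaling and 32 and 10 under quantile normalization. Members of 1 family could differ. The SUI1 family helps to choose the start codon, and its locus Phvul.011G138900 fell and had 149.7 ± 2.73 FPKM under cold and 922 ± 36.1 FPKM in controls. Phvul.006G043900 rose and had 57.9 ± 6.41 FPKM under cold and 3.68 ± 0.404 FPKM in controls. Aminoacyl-tRNA synthesis lay near the background, where 33 of 105 tested members rose (31.4%) and 16 fell (15.2%), with 22 and 23 under median-ratio scaling and 21 and 23 under quantile normalization.

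RNA-binding proteins of the glycine-rich family, some of which act as RNA chaperones in the cold in Arabidopsis, were mostly called higher. Of glycine-rich and cold shock proteins, 7 of 13 tested members rose (53.8%) and 3 fell (23.1%). Glycine-rich RNA-binding protein 3 was represented by Phvul.003G184700, at 91.4, 95.9 and 109.9 FPKM in cold libraries, against 5.81, 4.67 and 4.18 FPKM in control libraries. Its second locus, Phvul.008G033500, had 57.9 ± 2.07 FPKM under cold and 1.95 ± 0.402 FPKM in controls. Glycine-rich RNA-binding protein 2 (Phvul.001G267100) had 36.8 ± 2.25 FPKM under cold and 0.813 ± 0.179 FPKM in controls. Cold shock domain protein 1 (Phvul.009G122300), whose Arabidopsis namesake melts RNA structure, went the other way, at 7.91, 8.18 and 7.31 FPKM in cold libraries, against 45.6, 42.6 and 36.1 FPKM in control libraries. The groups did not overlap at these loci. Of RNA helicases, 45 of 83 tested members rose (54.2%) and 4 fell (4.82%), with 25 and 8 under median-ratio scaling and 22 and 9 under quantile normalization. The mitochondrial helicase PMH2 (Phvul.006G028900) had 29.2 ± 2.598 FPKM under cold and 0.381 ± 0.0583 FPKM in controls. The nucleolar helicase PRH75 (Phvul.007G063700) had 193 ± 15.9 FPKM under cold and 26.7 ± 4.22 FPKM in controls. Poly(A) binding protein 2 (Phvul.001G023500), which coats mRNA tails, had 272 ± 6.79 FPKM under cold and 41.3 ± 9.77 FPKM in controls. Of spliceosome loci, 157 of 371 tested members rose (42.3%) and 30 fell (8.09%), with 114 and 58 under median-ratio scaling and 111 and 57 under quantile normalization. Pentatricopeptide repeat proteins, which edit and process organelle RNA, were divided. Of them, 13 of 53 tested members rose (24.5%) and 15 fell (28.3%), with 9 and 20 under median-ratio scaling, 9 and 20 under quantile normalization and 9 and 13 of 45 without one-sided loci. Without control library 3 the counts were 16 and 13. Only 53 of their 223 loci passed the filter on low values.

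Among loci for protein quality control and turnover, the proteasome and protein processing in the endoplasmic reticulum had a larger share of members called higher than the 34.8% of all loci. Autophagy had a smaller share, and that of ubiquitin-mediated proteolysis, 30.9%, lay near that of all loci. Of proteasome loci, 44 of 71 tested members rose (62.0%) and 2 fell (2.82%), and the median lay 0.96 above that of all loci. The proteasome core subunit beta C1 (Phvul.001G072000) stood at 148, 152 and 158 FPKM in cold libraries, against 18.7, 11.8 and 17.5 FPKM in control libraries. The base ATPase RPT1A (regulatory particle triple-A 1A, Phvul.010G122200) stood at 251, 254 and 254 FPKM in cold libraries, against 45.00, 42.9 and 56.2 FPKM in control libraries. CDC48 (Phvul.007G149432), the ATPase that pulls ubiquitinated proteins out of membranes and complexes, stood at 547, 530.3 and 587 FPKM in cold libraries, against 34.7, 26.4 and 29.7 FPKM in control libraries. Every cold library was above every control library at these loci. Of endoplasmic reticulum protein processing, 149 of 335 tested members rose (44.5%) and 27 fell (8.06%), with 102 and 47 under median-ratio scaling and 99 and 48 under quantile normalization. Of protein export, 26 of 56 tested members rose (46.4%) and 4 fell (7.14%), with 15 and 10 under median-ratio scaling and 13 and 8 under quantile normalization. It held 2 SecY loci of the channel into the endoplasmic reticulum or plastid thylakoid. Phvul.005G081100 had 217 ± 13.1 FPKM under cold and 21.98 ± 4.17 FPKM in controls. Phvul.011G166200 had 169 ± 16.2 FPKM under cold and 12.2 ± 5.42 FPKM in controls. SECY homolog 1 (Phvul.009G206700), in Arabidopsis the thylakoid form, had 18.9 ± 0.689 FPKM under cold and 39.5 ± 3.84 FPKM in controls and fell. Its log2 change of -1.02 lost its call without control library 2 (-0.966) and without control library 3 (-0.999).

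In the plastid, the Clp chaperone CLPC homologue 1 (Phvul.009G162100), which feeds proteins to the stromal protease, rose. It stood at 972, 933 and 1036 FPKM in cold libraries, against 215, 185 and 223 FPKM in control libraries. Of ubiquitin-mediated proteolysis, 55 of 178 tested members rose (30.9%) and 18 fell (10.1%), with 30 and 33 under median-ratio scaling and 29 and 33 under quantile normalization. Ubiquitin-conjugating enzyme 28 (Phvul.009G136900) had 627 ± 7.47 FPKM under cold and 209 ± 36.9 FPKM in controls. A CHY-type RING zinc finger protein (Phvul.001G056800) stood at 19.8, 17.9 and 19.9 FPKM in cold libraries, against 233, 515 and 212 FPKM in control libraries. It was lower in each cold library. In autophagy, which recycles cell contents in the vacuole, 15 of 69 tested members rose (21.7%) and 5 fell (7.25%), with 8 and 11 under median-ratio scaling and 7 and 12 under quantile normalization. ATG3 (Phvul.011G006500), which attaches lipid to ATG8, had 36.3 ± 1.56 FPKM under cold and 117 ± 11.8 FPKM in controls.

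Loci of nitrogen assimilation moved in both directions. Nitrite reductase 1 (Phvul.003G292100), which makes ammonium in the plastid with reduced ferredoxin, stood at 104, 105 and 112 FPKM in cold libraries, against 379, 286 and 355 FPKM in control libraries. Glutamate dehydrogenase 1 (Phvul.004G080200), a mitochondrial enzyme linking glutamate and 2-oxoglutarate, stood at 422, 427 and 469 FPKM in cold libraries, against 5.595, 9.19 and 10.3 FPKM in control libraries. NADH-dependent glutamate synthase 1 (Phvul.001G076400) stood at 61.4, 53.4 and 65.5 FPKM in cold libraries, against 3.44, 2.17 and 2.81 FPKM in control libraries. The first fell and the others rose, without overlap between the groups. Carbonic anhydrase 1 (Phvul.004G013500), which the KEGG labels place in the same pathway and which interconverts carbon dioxide and bicarbonate, had 463 ± 14.3 FPKM under cold and 1318 ± 61.6 FPKM in controls. Of nitrogen metabolism, 14 of 33 tested members rose (42.4%) and 11 fell (33.3%), with 10 and 12 under median-ratio scaling and 10 and 12 under quantile normalization.

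In sulfur amino acid metabolism, a locus of high abundance under cold rose, while the pathway as a whole lay near all loci. A cobalamin-independent synthase family protein (Phvul.001G113800), of the family of plant methionine synthases, stood at 1671, 1639.5 and 1794 FPKM in cold libraries, against 50.6, 41.1 and 74.8 FPKM in control libraries. It had the highest mean level over the 6 libraries among the loci that rose and could be named, with a log2 change of 4.96 (SE 0.22, adjusted p = 2.1e-06 by limma). A cystathionine beta-synthase family protein (Phvul.003G047400) had 354 ± 15.1 FPKM under cold and 3.91 ± 1.199 FPKM in controls. Of cysteine and methionine metabolism, 33 of 85 tested members rose (38.8%) and 15 fell (17.6%), with 23 and 19 under median-ratio scaling and 21 and 19 under quantile normalization. ATP sulfurylase 1 (Phvul.007G062900), the first step of sulfate assimilation, had 206 ± 5.96 FPKM under cold and 76.4 ± 13.2 FPKM in controls, and its log2 change of 1.43 was 0.90 under median-ratio scaling and 0.99 under quantile normalization, where it was not called.

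In aromatic amino acid synthesis, which leads on to phenolic compounds, 3 loci around chorismate rose, while the share of the whole pathway that rose lay near the 34.8% of all loci. DAHP synthetase (Phvul.008G176200), the entry enzyme, had 61.5 ± 2.45 FPKM under cold and 2.13 ± 0.234 FPKM in controls. Chorismate synthase (Phvul.007G094200) had 242 ± 15.7 FPKM under cold and 27.8 ± 7.07 FPKM in controls. Chorismate mutase 1 (Phvul.004G032900) had 115 ± 4.44 FPKM under cold and 6.16 ± 1.03 FPKM in controls. In that pathway 14 of 40 tested members rose (35.0%) and 5 fell (12.5%). The breakdown of branched-chain amino acids was divided, where 24 of 72 tested members rose (33.3%) and 21 fell (29.2%), with 18 and 27 under median-ratio scaling and 18 and 27 under quantile normalization. The alpha subunit of methylcrotonyl-CoA carboxylase (Phvul.007G173900), a mitochondrial enzyme of leucine breakdown, stood at 8.51, 8.46 and 7.61 FPKM in cold libraries, against 103, 172 and 106 FPKM in control libraries. A second methylcrotonyl-CoA carboxylase locus (Phvul.003G291600) had 11.3 ± 0.305 FPKM under cold and 46.05 ± 6.34 FPKM in controls. A subunit of the branched-chain keto acid decarboxylase (Phvul.010G017700) had 11.4 ± 0.653 FPKM under cold and 48.1 ± 7.47 FPKM in controls. These 3 loci fell, while of mitochondrial matrix loci at large 32 of 63 tested members rose (50.8%) and 7 fell (11.1%), with 23 and 10 under median-ratio scaling and 23 and 10 under quantile normalization.

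Of fatty acid synthesis, 15 of 33 tested members rose (45.5%) and 2 fell (6.06%), with 12 and 5 under median-ratio scaling and 12 and 6 under quantile normalization. Over all loci, 34.8% rose and 16.0% fell. Acetyl-CoA carboxylase 1 (Phvul.009G028700), which makes malonyl-CoA, stood at 219, 195 and 228 FPKM in cold libraries, against 27.1, 21.7 and 33.04 FPKM in control libraries. The thioesterase FATB (Phvul.003G176200), which releases saturated fatty acids from the plastid machinery, stood at 213, 221 and 239 FPKM in cold libraries, against 14.7, 16.6 and 23.4 FPKM in control libraries. Both were higher in every cold library. In sphingolipid metabolism 18 of 74 tested members rose (24.3%) and 17 fell (23.0%), with 12 and 24 under median-ratio scaling and 12 and 23 under quantile normalization. Without control library 3 its counts were 18 and 18. Loci of early steps rose. LCB2 (Phvul.004G071100), a subunit of serine palmitoyltransferase, had 66.6 ± 3.62 FPKM under cold and 7.92 ± 1.496 FPKM in controls. The ceramide synthase LAG1 homologue 2 (Phvul.003G292300) had 32.5 ± 1.03 FPKM under cold and 1.999 ± 0.659 FPKM in controls. Of cutin, suberin and wax synthesis, 13 of 28 tested members rose (46.4%) and 6 fell (21.4%), with 11 and 8 under median-ratio scaling, 11 and 8 under quantile normalization and 6 and 4 of 17 without one-sided loci, so that without these loci its share of rises was 35.3%, near the 31.1% of all loci. A fatty acid hydroxylase superfamily locus of that group (Phvul.010G040600) stood at 56.5, 60.1 and 62.7 FPKM in cold libraries, against 0, 0 and 0.04696 FPKM in control libraries. An acyl-CoA reductase (Phvul.011G092500) had 60.4 ± 1.48 FPKM under cold and 0.2299 ± 0.132 FPKM in controls, and both were below 1 FPKM in every control library.

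In starch metabolism 1 synthesis locus fell while 2 loci of breakdown rose. A glucose-1-phosphate adenylyltransferase (Phvul.011G044000), which makes the ADP-glucose for starch, stood at 18.7, 17.9 and 18.97 FPKM in cold libraries, against 278, 277 and 246 FPKM in control libraries. Beta-amylase 1 (Phvul.004G143600), which cuts maltose from starch in the plastid, stood at 220.1, 230.3 and 226 FPKM in cold libraries, against 20.9, 21.1 and 50.7 FPKM in control libraries. Beta-amylase 3 (Phvul.006G161200), which has the same role, had 252 ± 14.97 FPKM under cold and 83.4 ± 16.2 FPKM in controls. The first fell and the amylases rose. Glucose-6-phosphate/phosphate translocator 2 (Phvul.006G151500), which brings glucose 6-phosphate into plastids, stood at 52.3, 58.8 and 53.8 FPKM in cold libraries, against 0.0186, 0.0404 and 0.0501 FPKM in control libraries. In the wider starch and sucrose pathway, 107 of 278 tested members rose (38.5%) and 50 fell (18.0%), with 77 and 72 under median-ratio scaling, 73 and 74 under quantile normalization and 75 and 42 of 229 without one-sided loci. UDP-galactose epimerase 5 (Phvul.002G164700) had 224 ± 1.96 FPKM under cold and 41.6 ± 9.89 FPKM in controls. Myo-inositol-1-phosphate synthase 2 (Phvul.001G251000), which makes the inositol used for galactinol, had 291 ± 13.2 FPKM under cold and 49.4 ± 16.3 FPKM in controls.

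Loci that loosen cell walls fell more often than they rose. Of expansins and xyloglucan endotransglucosylases, 5 of 23 tested members rose (21.7%) and 10 fell (43.5%), with 2 and 7 of 16 without one-sided loci, and the median lay 1.21 below that of all loci. Expansin A8 (Phvul.009G142800), which loosens growing walls, stood at 4.37, 3.37 and 3.87 FPKM in cold libraries, against 57.7, 79.8 and 138 FPKM in control libraries. Beta-xylosidase 1 (Phvul.009G254300), which trims wall polysaccharides, stood at 8.75, 6.75 and 7.25 FPKM in cold libraries, against 387, 277 and 211 FPKM in control libraries. Xyloglucan endotransglucosylase 28 (Phvul.002G182000) had 20.4 ± 0.933 FPKM under cold and 107 ± 7.77 FPKM in controls. These 3 loci were lower in each cold library, whereas expansin-like B1 (Phvul.003G228000) rose and had 46.4 ± 3.86 FPKM under cold and 2.14 ± 0.918 FPKM in controls.

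In glutathione metabolism, which handles peroxides and conjugates toxic compounds, 28 of 67 tested members rose (41.8%) and 10 fell (14.9%), with 19 and 13 under median-ratio scaling and 19 and 13 under quantile normalization. The deposited scaling gave 34.8% and 16.0% over all loci. A glutathione S-transferase (Phvul.007G161900) stood at 395, 421 and 424 FPKM in cold libraries, against 30.9, 30.4 and 29.3 FPKM in control libraries. Ascorbate peroxidase 1 (Phvul.011G071300), which removes hydrogen peroxide with ascorbate, stood at 295, 289.9 and 301 FPKM in cold libraries, against 51.3, 31.7 and 46.6 FPKM in control libraries. The iron store ferritin (spelled ferretin 1, Phvul.008G093700) stood at 264, 280.0 and 269 FPKM in cold libraries, against 5.38, 8.096 and 5.07 FPKM in control libraries. Each was higher in all cold libraries. The flavonoid pathway held many one-sided loci, and there 32 of 54 tested members rose (59.3%) and 11 fell (20.4%), with 29 and 16 under median-ratio scaling, 28 and 16 under quantile normalization and 14 and 7 of 32 without one-sided loci, so that most of its rises were of one-sided loci. A chalcone-flavanone isomerase (Phvul.009G143100), early in the pathway, had 131 ± 6.09 FPKM under cold and 15.5 ± 3.75 FPKM in controls. Dihydroflavonol 4-reductase (Phvul.006G111411), which leads to anthocyanins and tannins, had 7.43 ± 0.522 FPKM under cold and 31.4 ± 6.64 FPKM in controls.

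**Figure D4:**
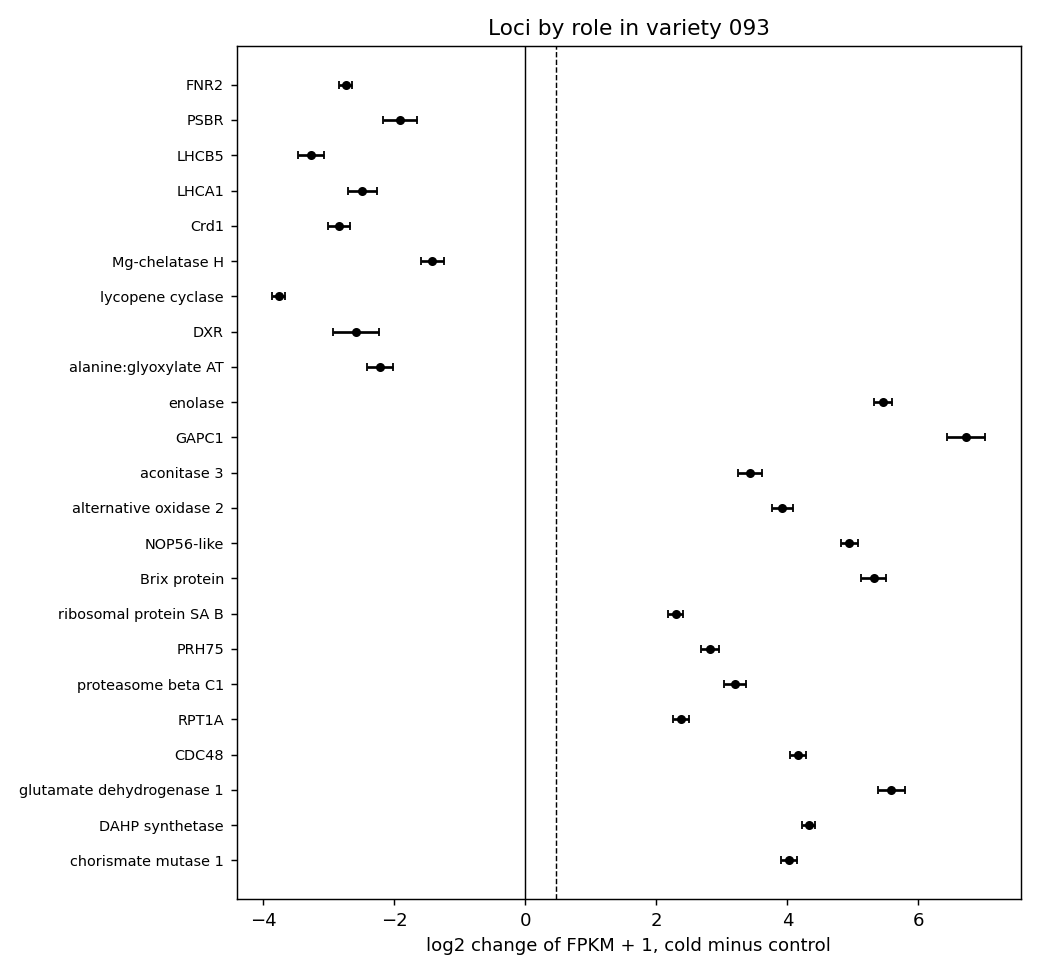
Log2 change under cold in 093 (cold minus control, log2(FPKM + 1); bars are ± 1 SE of the limma fit) of 23 of the loci described in the text, chosen for their roles with their values known, beside the all-loci median of 0.47 (dashed line). The 9 loci of light capture, pigment synthesis and photorespiration lie left of 0, and the plotted loci of respiration, ribosome assembly, proteasome and amino acid synthesis lie to the right.

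Signalling loci changed in both directions. Of plant hormone signal transduction, 146 of 420 tested members rose (34.8%) and 60 fell (14.3%), with 109 and 95 under median-ratio scaling, 99 and 97 under quantile normalization and 100 and 51 of 348 without one-sided loci. The shares lay close to the 34.8% and 16.0% of all loci. Histidine phosphotransfer protein 1 (Phvul.003G099000), a relay of cytokinin signals, stood at 12.7, 10.7 and 9.77 FPKM in cold libraries, against 242, 225 and 215 FPKM in control libraries. The auxin repressor IAA8 (indoleacetic acid-induced protein 8, Phvul.009G146000) had 19.95 ± 0.573 FPKM under cold and 108 ± 11.9 FPKM in controls. Both fell. The homeodomain factor BEL1-like homeodomain 1 (Phvul.007G267900) stood at 561, 543 and 576 FPKM in cold libraries, against 37.3, 30.3 and 30.1 FPKM in control libraries, and RIN4 (Phvul.006G058100), a target that immune receptors guard in Arabidopsis, had 732 ± 63.1 FPKM under cold and 101 ± 22.1 FPKM in controls. In plant-pathogen interaction, 211 of 518 tested members rose (40.7%) and 67 fell (12.9%), with 165 and 102 under median-ratio scaling, 151 and 103 under quantile normalization and 149 and 48 of 419 without one-sided loci. Without one-sided loci its share of rises was 35.6%, beside 31.1% of all loci. In the circadian rhythm pathway, whose loci follow the time of day, 38 of 111 tested members rose (34.2%) and 20 fell (18.0%), with 27 and 27 under median-ratio scaling and 27 and 28 under quantile normalization. A locus of the clock protein gigantea (Phvul.007G083500) rose and had 121 ± 6.34 FPKM under cold and 22.5 ± 2.37 FPKM in controls. Pseudo-response regulator 5 (Phvul.009G045000), also of the clock, rose and had 107 ± 5.03 FPKM under cold and 19.6 ± 5.24 FPKM in controls. The blue light receptor cryptochrome 2 (Phvul.007G108900) had 27.6 ± 1.56 FPKM under cold and 77.8 ± 11.5 FPKM in controls and fell.

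Of ABC transporters, 28 of 64 tested members rose (43.8%) and 7 fell (10.9%), with 21 and 11 under median-ratio scaling, 19 and 12 under quantile normalization and 19 and 4 of 52 without one-sided loci. The first share, 43.8%, compares with 34.8% of all loci, and that without one-sided loci, 36.5%, with 31.1%. Pleiotropic drug resistance 12 (Phvul.010G152500), whose Arabidopsis namesake imports abscisic acid, stood at 132, 120.2 and 132 FPKM in cold libraries, against 0.205, 0.292 and 0.365 FPKM in control libraries. P-glycoprotein 11 (Phvul.003G122400) had 66.7 ± 6.12 FPKM under cold and 0.367 ± 0.0929 FPKM in controls. Of sugar transporters, 25 of 51 tested members rose (49.0%) and 2 fell (3.92%), with 19 and 1 of 43 without one-sided loci. Sugar transporter 1 (Phvul.002G221200), a hexose importer, stood at 219, 212 and 231 FPKM in cold libraries, against 14.5, 18.7 and 33.8 FPKM in control libraries. An MtN3 family sugar exporter (Phvul.002G283800) stood at 35.3, 32.8 and 38.8 FPKM in cold libraries, against 0.301, 0.156 and 0.0772 FPKM in control libraries. Peptide transporter 1 (Phvul.006G065900) had 161 ± 5.12 FPKM under cold and 4.15 ± 1.06 FPKM in controls. Nitrate transporter 1.5 (Phvul.003G229000), which loads nitrate into the xylem in Arabidopsis roots, had 2.34 ± 0.452 FPKM under cold and 24.3 ± 10.2 FPKM in controls. The groups were apart at each of these loci, as the choice of loci required, and all but the last rose. Pleiotropic drug resistance 12, P-glycoprotein 11 and the MtN3 locus were one-sided, below 1 FPKM in every control library.

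Groups annotated by response were set beside the 34.8% and 16.0% of all loci, and not all had a larger share of rises. For red or far red light, 4 of 15 tested members rose (26.7%) and 1 fell (6.67%), with 1 and 3 under either alternative scaling. For jasmonic acid, 19 of 48 tested members rose (39.6%) and 9 fell (18.8%). Its counts were 15 and 12 under median-ratio scaling, 14 and 12 under quantile normalization and 11 and 8 of 37 without one-sided loci. Both groups are outside the 57 counted at the end. For abscisic acid, 96 of 186 tested members rose (51.6%) and 23 fell (12.4%), with 78 and 31 under median-ratio scaling, 77 and 32 under quantile normalization and 72 and 18 of 154 without one-sided loci. For heat, 44 of 81 tested members rose (54.3%) and 9 fell (11.1%). For wounding, 47 of 100 tested members rose (47.0%) and 15 fell (15.0%), with 41 and 22 under median-ratio scaling, 39 and 21 under quantile normalization and 30 and 12 of 79 without one-sided loci. For water deprivation, 56 of 113 tested members rose (49.6%) and 21 fell (18.6%), with 45 and 26 under median-ratio scaling, 44 and 29 under quantile normalization and 37 and 21 of 93 without one-sided loci. For cold acclimation, 9 of 15 tested members rose (60.0%) and 3 fell (20%). Among its falling members was cold regulated 314 thylakoid membrane 2 (Phvul.002G245100), at 48.5, 51.4 and 50.6 FPKM in cold libraries, against 223, 151 and 202 FPKM in control libraries. It was lower in every cold library than in any control library.

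In bulk leaf samples, fewer cells of a type and less RNA per cell cannot be told apart. For the phloem list, 17 of 19 loci passed the filter, and of these 6 of 17 tested members rose (35.3%) and 3 fell (17.6%), with 4 and 4 under median-ratio scaling and 3 and 4 under quantile normalization. Its summed share was 0.0661, 0.0682 and 0.06503% in the cold libraries, against 0.0361, 0.0321 and 0.0378% in the control libraries. The epidermis and trichome list, mostly TRICHOME BIREFRINGENCE-LIKE loci, which act on cell walls at large, had 26 tested members, of which 5 rose and 9 fell. The counts of this list were 4 and 11 under median-ratio scaling, 3 and 11 under quantile normalization and 2 and 8 of 18 without one-sided loci. Its summed share was 0.0399, 0.0378 and 0.0381% in the cold libraries, against 0.106, 0.115 and 0.105% in the control libraries. Guard cell words matched 4 loci, of which 2 were tested, 1 higher and 1 lower, or 0 and 1 without one-sided loci. The share of the guard cell loci was 0.00436, 0.00375 and 0.00461% in the cold libraries, against 0.00168, 0.00263 and 0.00236% in the control libraries. Words for dividing cells matched 14 loci, of which 5 were tested, with 2 higher and 0 lower, or 1 and 0 of 4 without one-sided loci. The share of the dividing cell loci was 0.0833, 0.0796 and 0.0805% in the cold libraries, against 0.0547, 0.0498 and 0.0553% in the control libraries. The seed and root words matched mainly lipid-transfer and MtN3 or MtN21 transporter families, which are not confined to those organs. Of the seed words, 5 of 8 tested members rose and 1 fell, or 1 and 1 without one-sided loci, with a share of 0.0282, 0.0342 and 0.0396% in the cold libraries, against 0.0768, 0.00642 and 0.0139% in the control libraries, where control library 1 was highest. Of the root words 16 of 51 tested members rose (31.4%) and 12 fell (23.5%), with 14 and 17 under median-ratio scaling, 13 and 17 under quantile normalization and 10 and 6 of 38 without one-sided loci. The part of cell makeup in the results above was not tested.

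The response of 093 was set against that of 120 by the difference of the responses, 093 minus 120, in a limma fit to all 12 libraries. A positive difference can be a larger rise or a smaller fall in 093 than in 120, and the counts below do not separate these. The difference was called for 19.6% of the 14716 loci tested there, 13.1% positive and 6.50% negative, but the balance depended on scaling. Of the 13810 loci described here, 1803 differences were positive and 829 negative with the deposited scaling, 1099 and 1225 with median-ratio scaling, and 1170 and 1134 with quantile normalization. Chloroplast stroma loci had 63 positive and 4 negative differences of 366, with 34 and 12 under median-ratio scaling and 36 and 12 under quantile normalization. Carbon fixation loci had 27 positive and 3 negative of 89, with 18 and 4 under median-ratio scaling and 18 and 3 under quantile normalization. Proteasome loci had 2 positive and 2 negative of 71, with 1 and 4 under median-ratio scaling and 1 and 3 under quantile normalization. These groups were picked with their values known, and positive differences were not particular to plastid groups. Starch and sucrose loci had 74 positive and 18 negative of 278, with 46 and 25 under median-ratio scaling and 53 and 24 under quantile normalization. Protein export loci had 0 positive and 5 negative of 56, with 0 and 7 under both alternative scalings.

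Of the 105 loci described by name, 36 had a called difference, 30 positive and 6 negative. The 105 were chosen for called changes in 093, 68 rises and 37 falls, from libraries that also enter the difference. That balance therefore does not describe the loci at large. The MtN3 sugar exporter (Phvul.002G283800), which rose in 093, stood at 0.837, 0.379 and 1.68 FPKM in cold libraries of 120, against 0.492, 1.06 and 0.882 FPKM in control libraries of 120. The difference of its log2 changes was 4.88 (SE 0.32, adjusted p = 2.8e-06 by limma). The CHY-type RING zinc finger protein (Phvul.001G056800), which fell in 093, stood at 27.96, 23.8 and 17.3 FPKM in cold libraries of 120, against 22.4, 5.79 and 26.1 FPKM in control libraries of 120, a difference of -4.41 (SE 0.66, adjusted p = 6.7e-04 by limma). Its mean level under cold was 19.2 FPKM in 093 and 23.0 FPKM in 120. In controls it was 320 and 18.1 FPKM, so that the varieties differed mainly without cold. The gigantea locus described above (Phvul.007G083500) stood at 139, 136 and 89.8 FPKM in cold libraries of 120, against 0.487, 0.206 and 0.809 FPKM in control libraries of 120. Cold libraries were higher than control libraries in both varieties, and the difference of -3.96 (SE 0.26, adjusted p = 3.5e-06 by limma) had the sign of a smaller rise in 093. Levels of this gigantea locus under cold were of similar size in both varieties, and its control level was higher in 093. The difference thus lay mainly between the control plants, whose time of sampling is not given. Acetyl-CoA carboxylase 1 (Phvul.009G028700) stood at 114, 122 and 93.2 FPKM in cold libraries of 120, against 62.5, 57.2 and 71.9 FPKM in control libraries of 120, a difference of 2.18 (SE 0.23, adjusted p = 8.7e-05 by limma). These 4 differences were called under all 17 alternative settings tried.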

How the data were processed

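Transcripts of 12 leaf libraries were measured by RNA sequencing of poly(A) RNA. The deposited table holds FPKM values per locus, made by the authors. Per the submitters' processing notes, cutadapt 1.9, HISAT2 2.0.4 and StringTie 1.3.4d were used, and DESeq2 and edgeR are named there; the genome build and strand setting are not given in the sources used here. Loci with near-identical copies may share fragments.

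From FPKM, log2(FPKM + 1) was fitted with limma 3.58.1 (variance trend) in R 4.3.3, on the 6 libraries of 093, or on all 12 for the difference of responses. DESeq2 and edgeR were not used for tests, since FPKM are not counts. Shares were tested by exact permutation. Figures were drawn with Python. The fit of 093 cold against control was tested on simulated data in which few loci changed, as many up as down. That test does not bear on the scaling of the deposited values. Alternatives were 2 scalings, a pseudocount of 0.1, no filter, 1 FPKM in all 6 libraries, all 12 libraries in the fit, no variance trend, a replicate block, no fold threshold and each library left out.

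Named loci had a description and a gene name of their own, were called without overlap, and were, in a gene group with at least 4 tested members, among the 2 most abundant in a direction or the 2 with the largest change, or among the 5 most abundant in a direction over all loci. Of 363 such loci, the 105 described were picked with their values known. Members, groups and loci were chosen with earlier results of these data known, and the groups from GO terms were added after the table had been seen.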

Additional observations from a re-analysis of the deposited data

Results flagged for a closer look

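Loci described above were flagged where the cold responses of 093 and 120 differed by a called interaction (limma over 12 libraries, log2 scale, 093 minus 120). There were 36 such loci, and 22 kept the call under all 17 alternative settings. Under median-ratio scaling the median difference of all loci was -0.0092, against 0.23 as deposited.

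The largest positive difference, 4.88, belonged to the MtN3 locus Phvul.002G283800. Other positive differences that kept their call were 2.39 for beta-amylase 3 (Phvul.006G161200), 2.24 for GAPC1 (Phvul.001G259000), 2.22 for the L16p/L10e protein (Phvul.006G080600) and 2.18 for acetyl-CoA carboxylase 1 (Phvul.009G028700). Next came 1.95 for myo-inositol-1-phosphate synthase 2 (Phvul.001G251000), 1.897 for magnesium chelatase H (Phvul.001G132200), 1.86 for ferritin (Phvul.008G093700), 1.85 for DXR (Phvul.010G023000) and 1.80 for the cobalamin-independent synthase (Phvul.001G113800). Smaller ones were 1.66 for BEL1-like homeodomain 1 (Phvul.007G267900), 1.57 for enolase (Phvul.001G186100), 1.503 for glutamate synthase 1 (Phvul.001G076400), 1.37 for the glutathione S-transferase (Phvul.007G161900) and 1.32 for the cystathionine beta-synthase family protein (Phvul.003G047400). The last of them were 1.31 for CLPC homologue 1 (Phvul.009G162100) and 1.21 for PMH2 (Phvul.006G028900). Magnesium chelatase H and DXR fell in 093, so their positive differences have the sign of a smaller fall, and the other loci listed here rose in 093. For magnesium chelatase H, the log2 change was -1.42 in 093 and -3.31 in 120.

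Negative differences that kept their call were -4.41 for the CHY-type zinc finger protein (Phvul.001G056800), -4.004 for pseudo-response regulator 5 (Phvul.009G045000), -3.96 for gigantea (Phvul.007G083500), -2.24 for the glucose-1-phosphate adenylyltransferase (Phvul.011G044000) and -1.14 for the lycopene cyclase (Phvul.009G230300).

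The remaining 14 lost their call under at least 1 setting. Nitrite reductase 1 (Phvul.003G292100), at 2.96, lost it under 8, all of them single libraries left out, and its cold libraries of 120 were 6.62, 7.11 and 70.5 FPKM. Alpha-keto acid decarboxylase E1 beta (Phvul.010G017700), at -1.001, lost it under 12, and expansin A8 (Phvul.009G142800), at 1.504, under 10. Rubisco activase (Phvul.001G234300) had 1.26, Crd1 (Phvul.001G108700) 1.02, ATP sulfurylase 1 (Phvul.007G062900) 1.75 and aconitase 3 (Phvul.005G115100) 1.05. NDB2 (Phvul.006G192400) had 1.02, CDC48 (Phvul.007G149432) 1.02, chorismate synthase (Phvul.007G094200) 1.13 and the NOP56-like locus (Phvul.011G042200) 1.16. The glycine-rich proteins had 1.24 (Phvul.003G184700) and 1.11 (Phvul.008G033500), and the acyl-CoA reductase (Phvul.011G092500) had 1.22, with 0.33 as its lowest value over the settings.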

How the results depend on the processing

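The count of loci that rose, 4802, was 3197 when 1 FPKM was required in all 6 libraries, where 10453 loci were tested. The count that fell, 2214, was 3363 under quantile normalization and 3697 with no fold threshold. With single libraries left out, 4572 to 5133 loci rose and 2128 to 2298 fell, and 2552 to 3224 differences of responses were called over all settings. A pseudocount of 0.1 gave 5367 and 2538. The replicate block gave 4827 and 2227, and 2800 differences of responses against 2886 without it; same-numbered libraries correlated in their deviations by -0.030, 0.067 and 0.027, so the numbers were not taken as pairs.

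The direction of the Rieske protein (Phvul.005G109400) reversed under quantile normalization, at 0.029 on log2, and the cause was not tested. Of the 105 loci described, 2 lost their call under median-ratio scaling and 6 under quantile normalization, and 11 could not be tested with 1 FPKM required in all 6 libraries. The larger count changed side or tied in 12 of 57 gene groups under median-ratio scaling, in 13 under quantile normalization, in 2 without control library 3 and in 6 without one-sided loci. Those 6 were chloroplast stroma, guard cell, nitrogen metabolism, porphyrin and chlorophyll, seed and sphingolipid groups. Fragment totals are not given, so the limit that depth sets on low loci is unknown.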
